A study of Mus musculus with 6 samples.

Results

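Mitochondrial ribosomal proteins are encoded in the nucleus, made in the cytosol and imported into mitochondria, where they assemble with ribosomal RNAs of the mitochondrial genome. The resulting ribosome, the mitoribosome, has a large subunit that joins amino acids and a small subunit that reads the messenger RNA, and it makes the core subunits of the respiratory chain and of ATP synthase that the mitochondrial genome encodes. Some of its proteins have a counterpart in bacterial ribosomes and others are found in mitochondria alone. Skeletal muscle, with its high demand for ATP, is rich in mitochondria.

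The 74 genes described here are those with a symbol of Mrpl or Mrps and a digit on a probe set that names no other gene, out of 12393 genes on the array with such a probe set. They comprise 47 genes of the large subunit (Mrpl) and 27 of the small subunit (Mrps), read by 127 probe sets. Each gene was represented by its brightest probe set over the 6 arrays, and 33 genes had more than 1. RefSeq lists 78 protein-coding mouse genes of this naming, and Mrpl30, Mrpl53, Mrps10 and Mrps27 were not analysed here.

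The TFEB KO mice lacked the transcription factor TFEB, the product of Tcfeb, in muscle, through a cross of mice with a floxed Tcfeb gene to mice with the MLC1f-Cre transgene, whose myosin light chain promoter acts in muscle fibers, so that the other cells of the tissue keep the gene. The WT mice were labelled wildtype, with no word on the floxed allele or Cre. There were 3 TFEB KO and 3 WT mice, all C57BL/6, 1 month old, with no treatment named, and 1 Affymetrix array of muscle total RNA per mouse. The labels name no particular muscle. Values are log2 values from RMA, a method that corrects, normalizes and summarises the probes of a probe set, so that most of a shift common to nearly all genes is taken out. A log2 fold change is the TFEB KO mean minus the WT mean, so that 1 is a doubling, and a gene was called where limma gave an adjusted p under 0.05.

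TFEB binds E-box sequences with the core CACGTG, and nuclear respiratory factor 1 (NRF1), a regulator of nuclear genes for mitochondrial proteins, binds the palindrome of which GCGCATGCG is the core. RefSeq promoters (GRCm38.p6, 250 bases before to 50 after the start) were found for 65 of the 74 genes. CACGTG, searched on both strands, was present in 5 of these 65 genes (7.69%), against 8.91% of 17491 protein-coding genes counted the same way and 7.15% of all 32851 promoters in the table. TCACGTGA, a longer form that contains CACGTG, was in 2 of the 65 (3.08%), against 1.41% of protein-coding genes and 0.974% of all promoters. GCGCATGCG was in 7 (10.8%), against 2.61% of protein-coding genes and 1.75% of all promoters. The motif of ETS factors such as GABP, CCGGAAGT, was in 11 (16.9%), against 5.69% and 3.89%, and that of YY1, AAGATGGCG, was in 7 (10.8%), against 2.14% and 1.40%. In the 250 bases before the start alone, the first 3 motifs kept their counts, against 7.61%, 1.15% and 2.19% of protein-coding genes in that order. There CCGGAAGT was in 9 (13.8%), against 4.26%, and AAGATGGCG in 2 (3.08%), against 0.84%. A match is a run of letters and not a measured binding site.

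The promoter stretches of all 5 genes with CACGTG are shown because they carry the letters that TFEB binds, with that motif in capitals. In Mrpl2 and Mrps18c the capitals include the longer form, and in Mrps18c they run on into an overlapping ETS motif, ACTTCCGG, on the other strand.
Mrpl2: actgccgcccgTCACGTGAcccgagcaacc
Mrps18c: gcagccccgggTCACGTGACTTCCGGcccg
Mrpl37: agcaagtttcttCACGTGtggcacttcaga
Mrpl36: cacacgtcatccCACGTGaccttacgccat
Mrpl20: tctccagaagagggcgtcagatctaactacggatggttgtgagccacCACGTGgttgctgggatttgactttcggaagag
They lie at chr17:46646078-46646107 (+), chr5:100798584-100798613 (+), chr4:107067011-107067040 (-), chr13:73330954-73330983 (+) and chr4:155802798-155802877 (+), and the motif begins 132, 164, 162, 43 and 33 bases before the start in that order. The stretches of Mrpl2, Mrps18c and Mrpl37 also overlap the neighbouring genes Klc4, Helq and Cyb5rl, and that of Mrpl36 lies within the annotated span of Mrpl36 itself.

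The NRF1 motif is shown, in capitals, in 4 of the 7 genes, Mrpl10 and Mrps18b with values below WT and Mrpl39 and Mrpl9 with values above it.
Mrpl10: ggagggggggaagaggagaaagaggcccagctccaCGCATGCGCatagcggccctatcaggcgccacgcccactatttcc
Mrps18b: aacggcccgaCGCATGCGCactgggagcac
Mrpl39: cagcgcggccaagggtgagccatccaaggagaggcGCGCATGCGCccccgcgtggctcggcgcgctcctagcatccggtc
Mrpl9: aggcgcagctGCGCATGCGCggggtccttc
They lie at chr11:97041412-97041491 (+), chr17:35916645-35916674 (-), chr16:84735325-84735404 (-) and chr3:94443298-94443327 (+). The stretch of Mrps18b also overlaps Ppp1r10 and that of Mrpl9 lies within the annotated span of Mrpl9. In Mrpl39 and Mrpl9 the run in capitals holds the motif on both strands.

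Tfeb itself read 7.10, 7.23 and 7.04 in TFEB KO muscle and 8.61, 8.55 and 8.96 in WT muscle, a log2 fold change of -1.58 (SE 0.13, limma adjusted p = 0.0079). Fiber genes such as Acta1 and Ckm read above 14 on every array, hepatocyte markers (Alb, Apoa1, Ttr) read between 4.69 and 6.27, and correlations over all probe sets were 0.992 to 0.997 within groups and 0.989 to 0.993 between groups. The 12 macrophage markers averaged 0.86 to 1.45 above the WT mean in TFEB KO arrays, against -0.37 to 0.32 in WT arrays. Of these 12, 5 were called higher, where 0.871% of all genes were. The 8 endothelial markers averaged -0.67 to -0.55 in TFEB KO arrays, against -0.06 to 0.07 in WT arrays. Of these 8, 4 were called lower, where 0.702% of all genes were. The 7 slow fiber genes averaged -1.03 to -0.64 in TFEB KO arrays, against 0.30, 0.44 and -0.75 in WT arrays, so that WT 3 stood among the TFEB KO arrays. Of the 7, 0 were called and 5 had an unadjusted p under 0.05 (71.4%, against 17.1% of all genes). RNA of the whole tissue was measured, so fewer cells of a type and less RNA per cell cannot be told apart.

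None of the 74 mitochondrial ribosomal protein genes passed the limma test on its brightest probe set, and their fold changes were small in both directions. In the whole table, 0.871% of the 12393 genes were called higher and 0.702% lower in TFEB KO muscle. The smallest adjusted p among the members was 0.0963, for Mrpl10. The median log2 fold change of the 74 was -0.04 (quartiles -0.16 and 0.07, range -0.35 to 0.30), and 44 of the 74 were below 0. Over all genes the median was -0.01 and 53.4% were below 0. The fold changes of the members had an SD of 0.16, against 0.25 over all genes. The distance between the quartiles was nearly equal, at 0.22 in the members and 0.24 over all genes, whose range was -1.79 to 2.73.

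On the brightest probe set of each gene, the arrays bounded these changes closely. The 95% intervals of 71 of the 74 members lay inside a 1.5-fold change in either direction, and those of all 74 lay inside a 2-fold change. The 3 with a bound past 1.5-fold were Mrpl34, whose lower bound was -0.61 (1.52-fold lower), Mrps9, whose upper bound was 0.67 (1.60-fold higher), and Mrpl47, whose upper bound was 0.60. The median half-width of the interval was 0.22 on the log2 scale. Less bright probe sets were not counted in these bounds, and some lay further from 0. A dim one of Mrpl15 was at -0.89 (SE 0.17) and the less bright one of Mrpl48 at 0.43 (SE 0.20).

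**Figure D1:**
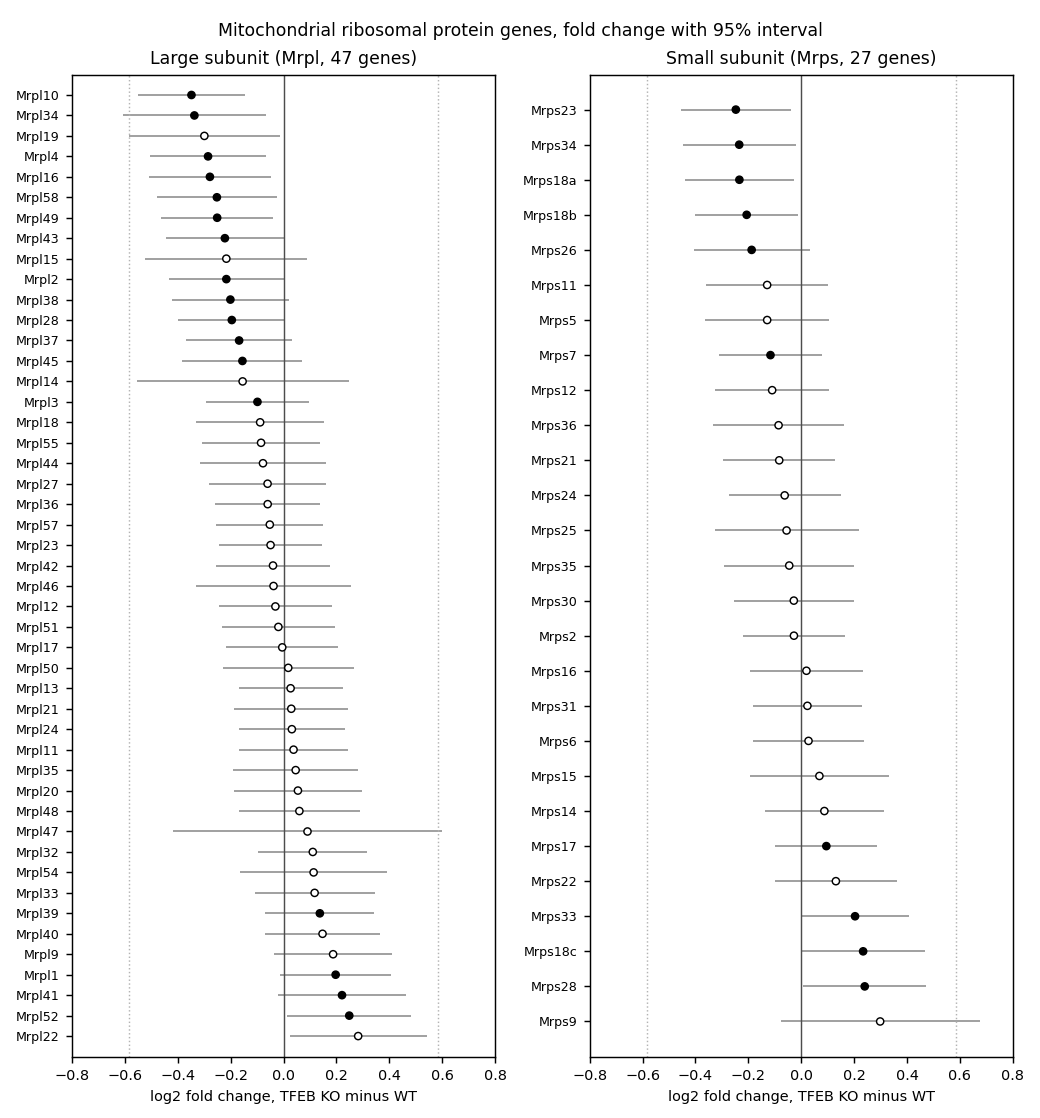
Log2 fold change (TFEB KO minus WT, x axis) of each mitochondrial ribosomal protein gene (y axis), with the large subunit on the left and the small subunit on the right. Points are limma estimates from 3 TFEB KO and 3 WT arrays, bars are 95% intervals, filled points are genes whose groups do not overlap, and dotted lines mark 1.5-fold; the points run from -0.35 (Mrpl10) to 0.30 (Mrps9).

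More members were below WT than above it when each was read singly. At an unadjusted limma p under 0.05 there were 3 higher members, where 8.49% of all genes were higher, and 12 lower members, where 8.66% of all genes were lower. Together these 15 are 20.3% of the members, against 17.1% of all genes. All TFEB KO arrays lay below all WT arrays in 19 members (25.7%), against 12.9% of all genes, and above them in 8 members (10.8%), against 10.8% of all genes. As single arrays were left out, the count of 15 ran from 2 to 15. It was 6 without TFEB KO 1, where 17.1% of all genes had such a p, and 6 without TFEB KO 3, where 13.5% had. It was 2 without WT 1, where 11.6% had, and 2 without WT 2, where 13.6% had. With fewer arrays, groups overlap less often: without WT 2 the TFEB KO arrays lay above in 16 members, against 15.2% of all genes, and without WT 3 they lay below in 27, against 20.1% of all genes.

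In the stalk that engages translation factors, Mrpl10 had the lowest fold change of the 74 genes and Mrpl12 was close to 0. Mrpl10, the base of the stalk that carries Mrpl12, read 8.48, 8.48 and 8.46 in TFEB KO muscle and 8.79, 8.92 and 8.77 in WT muscle. The TFEB KO arrays lay within 0.02 of each other and below every WT array, and the log2 fold change was -0.35 (SE 0.09, limma adjusted p = 0.0963, 1.27-fold lower). Mrpl12, which in human cells also binds the mitochondrial RNA polymerase, read 11.04, 10.93 and 10.96 in TFEB KO muscle and 10.92, 11.12 and 10.99 in WT muscle. Its groups overlapped, with a log2 fold change of -0.03 (95% interval -0.24 to 0.18). Mrpl1, of the stalk that in bacteria handles the outgoing tRNA, read 7.95, 7.91 and 8.05 in TFEB KO muscle and 7.71, 7.75 and 7.86 in WT muscle. Every TFEB KO array was above every WT array (log2 fold change 0.20, limma adjusted p = 0.321). Of the other probe sets of Mrpl1, the brighter read -0.08.

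Mrpl4 and Mrpl22, whose bacterial counterparts line the tunnel through which the new protein leaves the ribosome, had values on opposite sides. Mrpl4 read 9.65, 9.85 and 9.70 in TFEB KO muscle and 9.97, 10.10 and 9.99 in WT muscle, with no overlap (log2 fold change -0.29, SE 0.10, limma adjusted p = 0.182). Mrpl22 read 9.85, 9.85 and 9.72 in TFEB KO muscle and 9.46, 9.73 and 9.38 in WT muscle, where WT 2 lay just above the lowest TFEB KO array (0.28, SE 0.11, limma adjusted p = 0.251). Mrpl23 and Mrpl24, at the tunnel's exit, were at -0.05 and 0.03. Mrpl45, which attaches the mammalian mitoribosome to the inner membrane, was at -0.16, with TFEB KO arrays at 9.29, 9.13 and 9.40 and WT arrays at 9.40, 9.48 and 9.40.

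Other large-subunit proteins with a bacterial counterpart were also among the members of lowest fold change. Mrpl34 read 9.36, 9.40 and 9.28 in TFEB KO muscle and 9.80, 9.81 and 9.44 in WT muscle, so that WT 3 lay near the TFEB KO arrays (-0.34, SE 0.12, limma adjusted p = 0.198). Mrpl16 read 10.23, 10.37 and 10.28 in TFEB KO muscle and 10.63, 10.65 and 10.42 in WT muscle, again with WT 3 closest (-0.28, limma adjusted p = 0.207). Mrpl19 read 8.67, 8.31 and 8.30 in TFEB KO muscle and 8.77, 8.80 and 8.61 in WT muscle, and TFEB KO 1 overlapped the WT range (-0.30, limma adjusted p = 0.269). The intervals of all 3 left out 0 before adjustment, with upper bounds of -0.07, -0.05 and -0.01.

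Of the large-subunit proteins without a bacterial counterpart, Mrpl58, a peptidyl-tRNA hydrolase that became part of the mitoribosome, was at -0.25, with 9.47, 9.58 and 9.53 in TFEB KO muscle and 9.81, 9.90 and 9.64 in WT muscle. Mrpl49 was at -0.25 too, with 8.52, 8.68 and 8.47 in TFEB KO muscle and 8.85, 8.78 and 8.79 in WT muscle. In both, the groups did not overlap. Mrpl52 and Mrpl41 lay on the other side. Mrpl52 read 10.36, 10.37 and 10.56 in TFEB KO muscle and 10.05, 10.23 and 10.25 in WT muscle (0.25, limma adjusted p = 0.263). Mrpl41 read 10.34, 10.23 and 10.09 in TFEB KO muscle and 10.08, 10.06 and 9.86 in WT muscle (0.22, limma adjusted p = 0.337). The second probe set of Mrpl41 gave 9.67, 9.51 and 9.54 in TFEB KO muscle and 9.23, 9.24 and 9.21 in WT muscle (0.35, limma adjusted p = 0.0978), and its dim last one gave -0.17, so that Mrpl41 was the 1 gene whose probe sets differed in sign by over 0.5.

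In the small subunit, Mrps23 and Mrps34, both specific to mitochondria, were lowest. Mrps23 read 9.54, 9.62 and 9.54 in TFEB KO muscle and 9.90, 9.80 and 9.73 in WT muscle (-0.25, SE 0.09, limma adjusted p = 0.213). Mrps34 read 10.56, 10.51 and 10.63 in TFEB KO muscle and 10.88, 10.83 and 10.69 in WT muscle (-0.23, limma adjusted p = 0.246). Neither gene's groups overlapped. At the other end, Mrps28 read 11.10, 10.92 and 11.10 in TFEB KO muscle and 10.68, 10.82 and 10.89 in WT muscle, also without overlap (0.24, limma adjusted p = 0.277). Mrps9 had the highest fold change of all 74 and the widest interval of the small subunit, with 8.95, 9.13 and 9.40 in TFEB KO muscle and 8.55, 9.08 and 8.95 in WT muscle (0.30, SE 0.16, limma adjusted p = 0.408). It was 0.14 without WT 1 and 0.18 without TFEB KO 3, and at most 0.41 as single arrays were left out. Its other 3 probe sets gave 0.05, 0.04 and -0.17.

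The 3 paralogs of bacterial S18 had values on both sides of 0. Mrps18a, which structures place in the large subunit, read 10.36, 10.38 and 10.47 in TFEB KO muscle and 10.61, 10.72 and 10.58 in WT muscle (-0.23, limma adjusted p = 0.234). Mrps18b, in the small subunit, read 9.46, 9.49 and 9.45 in TFEB KO muscle and 9.65, 9.75 and 9.63 in WT muscle (-0.21, limma adjusted p = 0.267). Mrps18c, also in the small subunit, read 10.71, 10.50 and 10.62 in TFEB KO muscle and 10.25, 10.45 and 10.43 in WT muscle (0.23, limma adjusted p = 0.291). In each of the 3 genes the groups did not overlap, and a difference between the paralogs was not tested. Mrps30, also of the large subunit by structure, was at -0.03, and Mrps36, now known as a subunit of the 2-oxoglutarate dehydrogenase complex and not of the mitoribosome, was at -0.09.

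**Figure D2:**
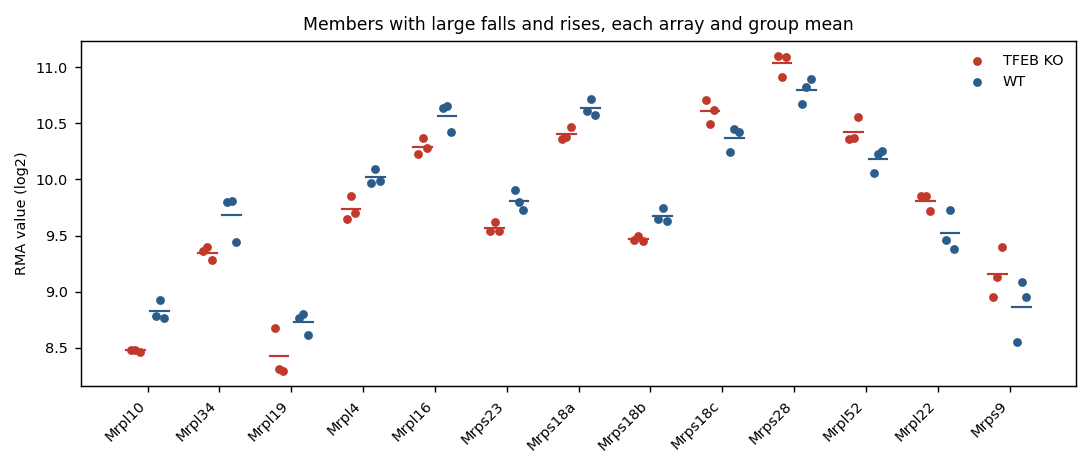
RMA values (log2, y axis) of 13 members (x axis) in each TFEB KO array (red, left) and each WT array (blue, right), with lines at the group means. The 3 TFEB KO arrays of Mrpl10 lie at 8.46 to 8.48, below its WT arrays at 8.77 to 8.92, while the groups of Mrpl19, Mrpl22 and Mrps9 overlap.

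The members of highest and lowest signal had fold changes within 0.20 of 0. Signals of different probe sets are not levels that can be ranked. Mrpl42, Mrpl51 and Mrps14, the brightest, were at -0.04, -0.02 and 0.09. Mrps5, Mrps11 and Mrpl1, the dimmest, were at -0.13, -0.13 and 0.20. The genes with CACGTG in the stretches above were at -0.22 (Mrpl2), -0.17 (Mrpl37), -0.06 (Mrpl36), 0.05 (Mrpl20) and 0.23 (Mrps18c). Mrpl2 and Mrps18c, with the longer form, thus had values of opposite sign, at 10.11, 10.29 and 10.28 in TFEB KO muscle and 10.38, 10.51 and 10.44 in WT muscle for Mrpl2. The 7 genes with the NRF1 motif ran from -0.35 (Mrpl10) to 0.28 (Mrpl22), with 3 below 0 and 4 above. Mrps18b was at -0.21, Mrpl39 at 0.14 and Mrpl9 at 0.19.

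Large and small subunits had nearly equal medians. The median log2 fold change was -0.04 (quartiles -0.18 and 0.06) in the large subunit and -0.05 (quartiles -0.12 and 0.08) in the small subunit, with 28 of 47 and 16 of 27 genes below 0. The difference of the medians, large minus small, was 0.01, and leaving out 1 array at a time moved it between -0.03 and 0.05. All TFEB KO arrays lay below all WT arrays in 13 of 47 large (27.7%) and 6 of 27 small subunit genes (22.2%), against 12.9% of all genes. They lay above in 4 large (8.51%) and 4 small subunit genes (14.8%), against 10.8% of all genes. With Mrps18a and Mrps30 counted in the large subunit and Mrps36 left out, the medians were -0.04 and -0.04 over 49 and 24 genes. By origin, the 46 members with a bacterial counterpart had a median of -0.04, and the 28 specific to mitochondria had one of -0.04 as well.

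Averaged over the 74 members, the arrays deviated from the WT mean by -0.030, -0.034 and -0.045 in TFEB KO muscle and by -0.016, 0.065 and -0.050 in WT muscle. The TFEB KO arrays thus lay inside the range of the WT arrays, with WT 3 lowest and WT 2 highest. WT 2 was the highest of all 6 arrays in 29 members (39.2%), against 15.8% of all genes, and the lowest in 0, against 10.6% of all genes. WT 3 was the lowest WT array in 41 members (55.4%), against 40.4% of all genes. WT 3 was also the WT array with low slow fiber genes and the lowest macrophage markers, and the part of fiber type and cell content in the members' values was not tested.

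**Figure D3:**
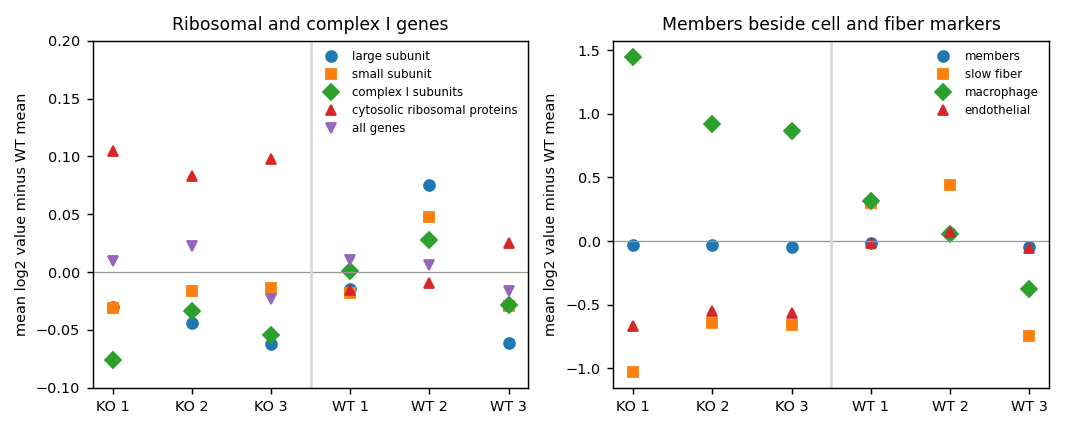
Mean over genes of the log2 value minus the WT mean (y axis) in each array (x axis, TFEB KO left, WT right), for ribosomal and complex I genes on the left and for the members beside marker lists on the right, where the scale is wider. The members lie between -0.050 and 0.065 on all arrays, while the slow fiber genes of WT 3 (-0.75) lie with those of TFEB KO muscle.

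One member was called when every probe set was counted. Of 22626 probe sets 1.6% were called in either direction, and 1 of the 127 of the members was. It reads Mrpl15, a large-subunit protein with a bacterial counterpart, which has 7 probe sets. The called one read 4.78, 4.85 and 4.74 in TFEB KO muscle and 6.03, 5.73 and 5.29 in WT muscle. No TFEB KO array reached a WT array, and the log2 fold change was -0.89 (SE 0.17, limma adjusted p = 0.0485, 1.85-fold lower). It is dim, with a mean in the lowest 40% of all probe sets, and it was no longer called in 5 of the 6 fits that left out an array, with limma adjusted p of 0.0759 without TFEB KO 1, 0.0974 without TFEB KO 2, 0.122 without TFEB KO 3, 0.14 without WT 1 and 0.156 without WT 2.

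The 4 bright probe sets of Mrpl15 were all below 0 and were not called. The brightest read 11.08, 11.13 and 11.18 in TFEB KO muscle and 11.41, 11.58 and 11.06 in WT muscle, where WT 3 was below every TFEB KO array (-0.22, limma adjusted p = 0.464). It was -0.36 without WT 3 and -0.10 without WT 2. The next read 10.69, 10.65 and 10.66 in TFEB KO muscle and 11.17, 11.22 and 10.78 in WT muscle (-0.39, limma adjusted p = 0.172). The remaining 2 bright ones gave -0.47 and -0.32, and the other dim ones -0.03 and -0.31. In all 4 bright probe sets WT 3 was the lowest WT array. Over the 33 genes with more than 1 probe set, 19 had all of theirs on one side of 0.

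**Figure D4:**
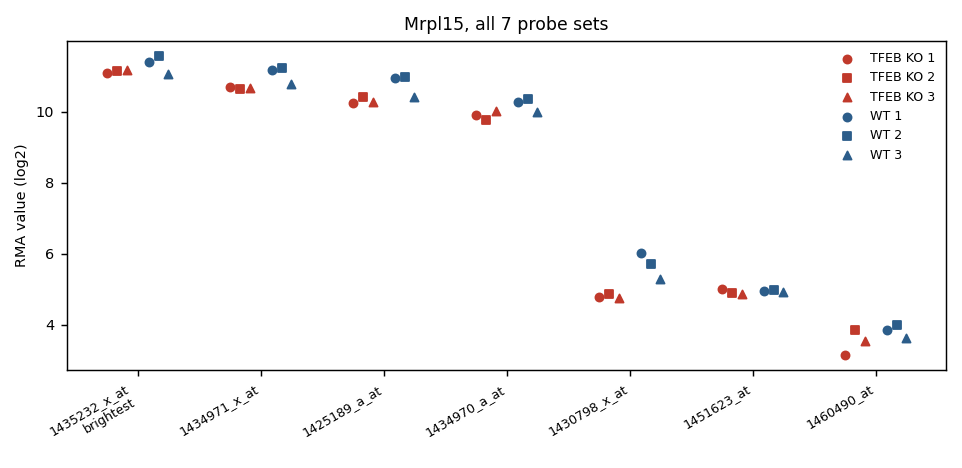
RMA values (log2, y axis) of the 7 probe sets of Mrpl15 (x axis, in order of brightness) in each TFEB KO array (red, left) and WT array (blue, right), with marker shapes for the array numbers. The called probe set, the fifth from the left, lies at 4.74 to 4.85 in TFEB KO arrays and 5.29 to 6.03 in WT arrays, and WT 3 (triangle) is the lowest WT array in the 4 bright probe sets.

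Of 15 genes for translation factors and other proteins that work with the mitoribosome, such as Oxa1l, 9 were measured. An unadjusted p under 0.05 was found for 2 (22.2%, against 17.1% of all genes), and 0 were called by limma. Tufm, the elongation factor that brings aminoacyl-tRNA to the mitoribosome, came closest. It read 9.13, 9.27 and 9.25 in TFEB KO muscle and 9.64, 9.75 and 9.62 in WT muscle (-0.45, SE 0.09, limma adjusted p = 0.0508), with every TFEB KO array below every WT array. Gfm2, which splits mitoribosomes after translation, read 9.09, 9.32 and 9.24 in TFEB KO muscle and 9.61, 9.63 and 9.57 in WT muscle (-0.38, limma adjusted p = 0.092). Oxa1l, which inserts new proteins into the inner membrane, was at -0.24, and the median of the 9 was -0.03.

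Of 17 mitochondrial aminoacyl-tRNA synthetases, which charge tRNAs with amino acids, 8 were measured and 0 called. Of the 8, 3 had an unadjusted p under 0.05 (37.5%, against 17.1% of all genes). Their median was -0.20, with 6 of 8 below 0, and Pars2, Tars2 and Hars2 had the smallest p, at -0.39, -0.22 and -0.21 (limma adjusted p = 0.245, 0.274 and 0.262). Of 24 genes for assembly of the mitoribosome and modification of its RNA, 18 were measured and 0 called, with a median of -0.03. Their log2 fold changes ran from -0.34 to 0.28, with 11 below 0 and 7 above. An unadjusted p under 0.05 was found for 5 (27.8%, against 17.1% of all genes), 4 lower and 1 higher. Of the 3 with the smallest p, Afg3l2 and Spg7, which form the protease that matures Mrpl32, were at -0.33 and -0.34. Nsun4, a methyltransferase of the small subunit's RNA, was at -0.27. Of 8 genes for transcription and copying of mitochondrial DNA, 6 were measured and 0 were called or had an unadjusted p under 0.05, with a median of 0.02; Polg2 (0.17), Polg (0.17) and Tfb2m (-0.05) had the smallest p. Of the mitoribosomal proteins that bear other symbols, Gadd45gip1 was at -0.20, Dap3 at -0.18, Chchd1 at 0.10 and Ptcd3 at 0.00, and 0 were called or had an unadjusted p under 0.05.

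Among 10 regulators of mitochondrial biogenesis, 1 was called, the deleted gene Tfeb itself, where 0.702% of all genes were called lower. With Tfeb counted, 3 had an unadjusted p under 0.05 (30%, against 17.1% of all genes), all lower. All TFEB KO arrays lay below all WT arrays in 3 of the 10 (30%), against 12.9% of all genes. Ppargc1b, a coactivator of genes for mitochondrial proteins, read 8.42, 8.17 and 8.32 in TFEB KO muscle and 8.54, 8.81 and 8.93 in WT muscle (-0.46, limma adjusted p = 0.111). Ppargc1a read 8.61, 8.55 and 9.31 in TFEB KO muscle and 9.24, 9.33 and 9.36 in WT muscle, with TFEB KO 3 inside the WT range (-0.49, limma adjusted p = 0.238). Nrf1 and Gabpa, whose products bind the NRF1 and ETS motifs searched above, were at -0.13 and 0.07.

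The 34 nuclear-encoded subunits of complex I, a respiratory complex to which the mitoribosome supplies the mitochondrially encoded subunits, had a median of -0.04, with 24 below 0. Of these, 0 were called and 6 had an unadjusted p under 0.05 (17.6%, against 17.1% of all genes). All TFEB KO arrays lay below all WT arrays in 12 of the 34 (35.3%), against 19 of 74 mitoribosomal genes (25.7%) and 12.9% of all genes. The list of cytosolic ribosomal proteins held 49 genes with an Rpl or Rps symbol, including paralogs such as Rpl3l and the pseudogene symbol Rps15a-ps6. Their median was 0.11, with 38 above 0, 0 called and 8 at an unadjusted p under 0.05 (16.3%, against 17.1% of all genes). All TFEB KO arrays lay above all WT arrays in 17 of the 49 (34.7%), against 8 of 74 mitoribosomal genes (10.8%) and 10.8% of all genes. Rpl22l1 had the smallest p, with 12.68, 12.47 and 12.68 in TFEB KO muscle and 11.97, 12.07 and 12.31 in WT muscle (0.49, limma adjusted p = 0.0846). Averaged over the list, the cytosolic ribosomal proteins read 0.083 to 0.105 above the WT mean in TFEB KO arrays, against -0.016 to 0.025 in WT arrays, with no overlap of the groups. The difference between the cytosolic and mitochondrial lists was not tested. The macrophage markers were higher in the same arrays, and their part in the cytosolic values was not tested.

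**Figure D5:**
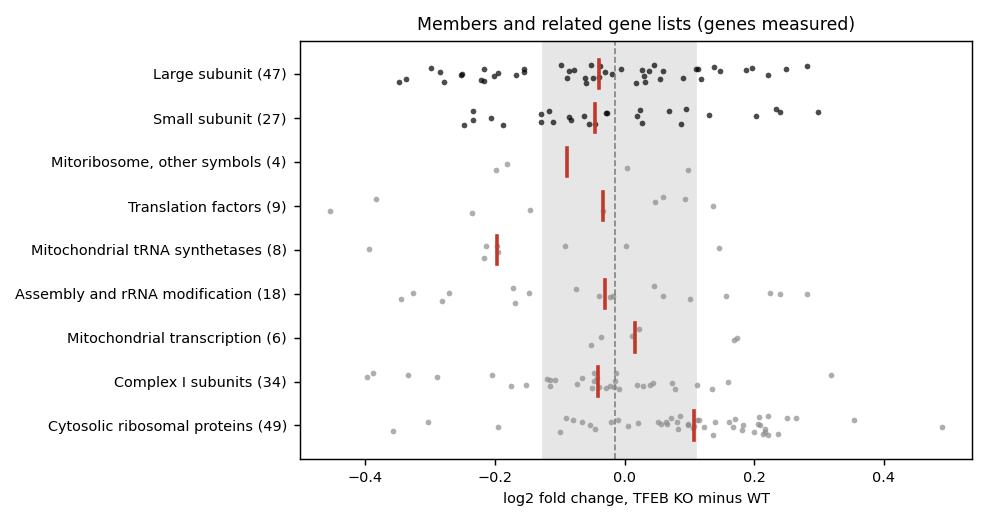
Log2 fold change (TFEB KO minus WT, x axis) of the measured genes of each list (y axis, number of genes in parentheses), with a red bar at each median. The gray band spans the quartiles of all 12393 genes (-0.13 to 0.11) and the dashed line their median (-0.01); the medians of both mitoribosomal subunits lie inside it, and that of the mitochondrial tRNA synthetases (-0.20) lies to its left.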

How the data were processed

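Muscle RNA of 3 TFEB KO and 3 WT mice was read on 1 Affymetrix array per mouse. The authors deposited log2 values of each probe set on each array, made with RMA in the R package affy according to the submitters' processing notes, which name no version or setting. Arrays of 1 group are labelled biological replicates. The array has 22690 probe sets, of which 64 are controls. In R 4.3.3, lmFit and eBayes of limma 3.58.1 were run two-sided on the other 22626, and p-values were adjusted over all of them by the Benjamini-Hochberg method. The platform's annotation gave 20380 of them 1 gene, 691 several and 1555 none; 20351 were found in RefSeq by Entrez ID, which changed 0 symbols. Exact permutation tests of single members, two-sided, cannot go below p = 0.10 with 3 arrays against 3 and are not quoted. The fit was also run on data simulated from limma's own model of spread, with planted changes larger than that of any member. Such a run cannot show how often changes as small as those of the members are found. The arrays give no depth, and their number limits the precision. Tables were handled with pandas 2.3.3 and NumPy 2.4.6 under Python 3.11.15, and plots were drawn with matplotlib 3.10.9.

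The members, lists and tests were chosen with earlier results of these data known. The named genes are members called on any probe set, the 8 largest falls and 6 largest rises, up to 12 members of smallest p whose groups do not overlap, the 3 brightest and 3 dimmest, those whose probe sets differ in sign by over 0.5, Mrpl12, Mrpl15, the Mrps18 paralogs, Mrps30, Mrps36, the called genes and the 3 of smallest p of each list, and Tfeb. Members with a motif or a role in the stalks or the exit tunnel, and the regulators and proteins under other symbols beyond the first 3, were named after their values were seen. Marker lists of muscle fibers, slow fibers, macrophages, endothelial cells, fibroblasts, hepatocytes and heart were counted. Of the last lists not described, the 5 fibroblast markers had 0 called by limma and a median of 0.26, but they were split in direction. An unadjusted p under 0.05 was found for 4 (80%, against 17.1% of all genes). Of these, Col1a1 (-0.82) and Col1a2 (-0.74) were lower, and Pdgfra (0.42) and Dcn (0.26) were higher. The 3 cardiac markers had 0 called and a median of -0.19. Among them 2 had such a p (66.7%), on opposite sides, Tnnt2 at 0.64 and Myh6 at -0.32. The 10 muscle fiber genes and the 3 hepatocyte markers had 0 by either count, with medians of 0.00 and -0.08. The alternatives were the methods' t-test, array weights, trended and robust moderation, quantile normalization applied again, arrays shifted to 1 common 75th percentile, the dimmest 40% of probe sets left out, a replicate block, probe sets averaged per gene, and arrays left out singly. A planned description of protein length and charge was not run, since no protein table was used here. RefSeq promoters of GRCm38.p6 were searched as text.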

Additional observations from a re-analysis of the deposited data

How the results depend on the processing

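The number of members called was 0 with limma under every alternative that kept 1 value per gene. It was 1 when all 127 probe sets were counted, a choice made after seeing the data, and 17 with the methods' t-test without adjustment, which called 1846 of all genes, against 0 members and 0 of all genes after Benjamini-Hochberg adjustment. The median of the members stayed below 0 in each setting, between -0.07 and -0.01. The difference of the subunits' medians ran from -0.03 to 0.05, on both sides of 0. Members near 0 changed sign when single arrays were left out: Mrps30 ranged from -0.082 to 0.041 and was above 0 without TFEB KO 1 or WT 1, Mrpl51 ranged from -0.072 to 0.023 and was above 0 without TFEB KO 2 or WT 2, Mrpl42 ranged from -0.087 to 0.0084 and was above 0 without WT 1, and Mrpl12 ranged from -0.074 to 0.024 and was above 0 without WT 2. Higher members at an unadjusted limma p under 0.05 numbered 3, where 8.49% of all genes were higher. They numbered 1 after a second quantile normalization or the shift to the same 75th percentile, and 5 with trended and robust moderation or without dim probe sets. Lower members numbered 12, where 8.66% of all genes were lower. Their count ran from 1 to 17 over all settings, the methods' t-test among them, and from 1 to 13 as single arrays were left out. With trended and robust moderation, 19 members had such a p in either direction, where 17.4% of all genes had. Members whose TFEB KO arrays all lay above WT numbered 8 (10.8%, against 10.8% of all genes), and 5 after the second quantile normalization. The called Mrpl15 probe set stayed between -1.08 and -0.71, with limma adjusted p = 0.0507 after the shift to the same 75th percentile and an adjusted p of 0.246 by the methods' t-test, and it was not tested where dim probe sets were left out. Averaging probe sets took Mrps9 to 0.05 and Mrpl1 to 0.03. Arrays with the same replicate number correlated in their deviations from the group means at 0.09, 0.05 and 0.27 over all probe sets. Arrays of different numbers correlated at -0.25 to 0.17. These values do not settle whether the numbers pair the arrays, and the main fit took the arrays as unpaired. With the replicate block 0 members were called and 15 had an unadjusted p under 0.05, as without it, and the calls over all genes were 168, against 195. Leaving out an array leaves fewer arrays for each fit.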
